A study of Mus musculus with 7 samples.

Results

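The EGF receptor family and its ligands were described through 10 genes chosen by name: the receptors Egfr, Erbb2 and Erbb3 and the ligands Egf, Tgfa, Hbegf, Areg, Ereg, Epgn and Btc. All 10 were found among the 56691 genes of the count table, and all 10 passed the filter on low counts, which kept 12888 genes. The skin came from 7 mice, 1 library each. Knockout skin (KO; mice 2, 3 and 4) was labelled as a knockout of Tuft1, which encodes tuftelin 1, and as healthy looking; wild-type skin (WT; mice 5, 6, 7 and 8) was the control, and nothing else differs between the groups in the labels. The labels give neither strain, age and sex nor which part of Tuft1 was removed. The libraries cover only the tail ends of polyadenylated transcripts, so counts do not grow with transcript length, and levels of different genes were compared as CPM, counts relative to the library's total, scaled with edgeR's TMM factors.

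Receptors of this family are tyrosine kinases in the cell membrane that pair when a ligand binds, and EGFR commonly pairs with ERBB2, which binds no ligand of its own, while ERBB3 has little kinase activity and signals through its partners. The ligands are made as membrane-bound precursors that the metalloproteases ADAM17 and ADAM10 cut free. In skin, the pathway drives keratinocyte growth and migration and delays differentiation, and mutations that weaken Tgfa or Egfr give mice wavy hair. Amphiregulin, the product of Areg, epiregulin, epigen, TGF-alpha and HB-EGF are known as growth factors that keratinocytes make for themselves.

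Promoter sequence is shown for Areg, the member with no counts in knockout skin, and for Egfr, the steadiest member. Both were picked after their values were seen, and a link between promoter sequence and level was not tested. Each line gives the 250 bases before the start site, 5′ to 3′ on the plus strand, from RefSeq (GRCm38.p6, another build than that of the counts). Areg lies at chr5:91139349-91139598 and Egfr at chr11:16751953-16752202 in that build. Capitals mark every match, on either strand, to the cAMP response element TGACGTCA, the AP-1 site TGANTCA, the GC box GGGCGG or the TATA box TATAAA.
Areg: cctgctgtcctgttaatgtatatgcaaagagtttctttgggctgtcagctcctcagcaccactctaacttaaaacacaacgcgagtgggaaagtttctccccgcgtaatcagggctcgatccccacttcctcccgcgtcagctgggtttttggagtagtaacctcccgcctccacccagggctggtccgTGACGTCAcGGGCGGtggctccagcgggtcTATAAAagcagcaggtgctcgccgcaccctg
Egfr: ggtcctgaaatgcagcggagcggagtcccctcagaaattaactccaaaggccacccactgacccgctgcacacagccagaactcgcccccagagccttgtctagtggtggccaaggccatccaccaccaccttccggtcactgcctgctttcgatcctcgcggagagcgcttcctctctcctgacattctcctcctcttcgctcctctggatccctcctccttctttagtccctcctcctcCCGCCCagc
The Areg promoter holds TGACGTCA starting 61 bases before the start site, GGGCGG at 52 and TATAAA at 31 bases before it, and these matches do not overlap. TGACGTCA occurs in 1.55% of the 32851 promoters of the table, TGANTCA in 6.75%, GGGCGG in 32.7% and TATAAA in 12.4%. The Egfr promoter holds 1 GC box, on the minus strand, and none of the other 3 motifs. Of the 10 members, 7 had a promoter searched here (Egfr, Erbb2, Egf, Tgfa, Areg, Epgn and Btc), and Areg is the 1 of these 7 with TGACGTCA. Promoters of the other members were not searched, so whether they hold TGACGTCA is not known. A match is a run of letters and says nothing of whether a factor binds there.

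Libraries held 7009237 to 9256459 counts, and Tuft1 itself stood at 17.2 to 29.1 CPM in the knockout group and 55.6 to 114 CPM in controls. Counts of Tuft1 thus remained in every library labelled knockout, at 23.3% of the wild-type mean, and whether they come from the removed part cannot be told from the labels. The groups did not overlap, but edgeR did not call Tuft1 (log2 fold change -2.10, SE 0.39, edgeR adjusted p = 0.172), whereas DESeq2 did (adjusted p = 8.77e-06), so a gene of this size of difference can miss the edgeR threshold here. Of the 12888 genes tested, 3 (0.0233%) differed between the groups at an adjusted p below 0.05 by edgeR's quasi-likelihood test. Epidermal markers were present in every library: the sum of 10 epidermal keratinocyte markers was 19189 to 20125 CPM in the knockout group and 20441 to 24519 CPM in controls. Counts were uneven between libraries. Of the 12226 genes with at least 100 counts in 1 library, 33% had 0 in another. A count of 0 allows a level of up to 0.323 to 0.395 CPM, depending on the library (3 counts, counting error only). In whole skin, fewer cells of a type and less RNA per cell cannot be told apart, and the labels do not say whether the mice were littermates.

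None of the 10 members passed edgeR's test between knockout and wild-type skin, beside 0.0233% of all genes. By edgeR 0 were called and 1, Areg, had an unadjusted p under 0.05, beside 4.31% of all genes tested. The DESeq2 Wald test called 1 of 10, again Areg (0.954% of all genes), and limma-voom called 0 (0.171% of all genes). Areg entered these tests only through wild-type mice 5, 6 and 7, where it is high, so its p-values support nothing on their own. In 3 of the 10, Areg, Ereg and Tgfa, some library had 0 counts, as in 35.8% of all genes tested. Fitted values lay below 0 for 8 of the 10 members and above 0 for Egfr and Egf, and their median log2 fold change of -0.51 stood beside -0.01 over all genes tested, of which 50.5% lay below 0. Setting Areg at the limit of its counts left it the lowest of the 10, so the median of -0.51 could not move and this tests nothing. No member separated the groups without overlap, against 6.89% of all genes tested.

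**Figure D1:**
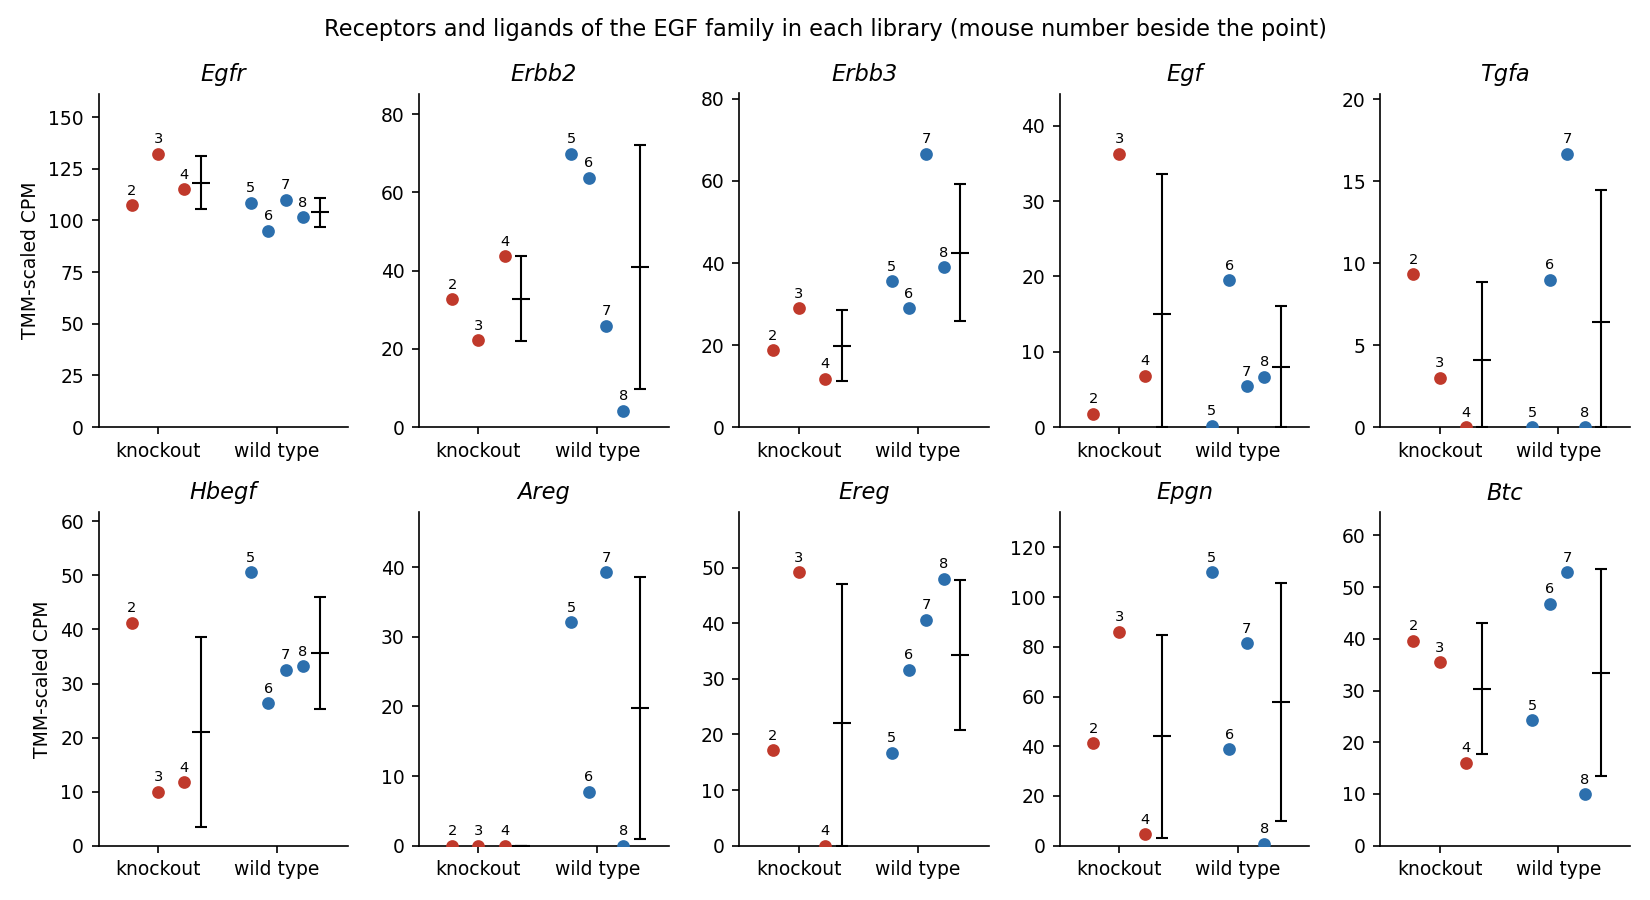
TMM-scaled CPM (y axis, from 0, scaled for each gene) of the 10 genes in each library; points carry the mouse number, red for knockout and blue for wild type, and the black bar is the mean with the SD (cut at 0; n = 3 and n = 4). Egfr lies between 95.1 and 132 CPM in all 7 libraries, Areg is at 0 in the 3 knockout libraries and in wild-type mouse 8, and the groups overlap for every gene.

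Egfr, the receptor of all 7 ligands, had the highest mean of the members in both groups and, among members with counts in every library, the smallest coefficient of variation. Its level was 107, 132 and 115 CPM in mice 2, 3 and 4 of the knockout group, against 109, 95.1, 110.1 and 102 CPM in control mice 5, 6, 7 and 8. The knockout mean was 118 ± 12.8 CPM (SD, n = 3) and the wild-type mean 104 ± 6.89 CPM (SD, n = 4). The groups overlapped, since knockout mouse 2 lay below wild-type mice 5 and 7. This gave a log2 fold change of 0.19 (SE 0.24; 95% interval -0.34 to 0.71; edgeR adjusted p = 0.9997), so the interval holds neither a doubling nor a fall to 50% of the wild-type level. The coefficient of variation over the wild-type mice was 6.63%, and 0.606% of the genes tested had a smaller one. Egfr lies at chromosome 11, 16702203 to 16868158 (mm39), and no other gene of the table overlaps its exons.

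Erbb2, the partner receptor without a ligand, varied much more. Its level was 32.7, 22.2 and 43.7 CPM in mice 2, 3 and 4 of the knockout group, against 69.9, 63.7, 25.9 and 4.21 CPM in control mice 5, 6, 7 and 8. Wild-type mice 5 and 6 lay above and wild-type mouse 8 far below the knockout range, a 16.6-fold spread within the wild-type group against 1.97-fold among the knockout mice. The fitted log2 fold change of Erbb2 was -0.32 (SE 0.73; 95% interval -1.89 to 1.26; edgeR adjusted p = 0.9997). Exons of Erbb2 (chromosome 11, 98303296 to 98328542, mm39) overlap those of Mien1 on the other strand, which held 4445 counts beside 2243 for Erbb2. The sources used here do not give whether counting used strand, so the level of Erbb2 is uncertain. Mien1 had 362 counts in wild-type mouse 8, its lowest value, and 475 to 920 counts in the other libraries.

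Erbb3, the receptor that signals through its partners, was lower on average in knockout skin, without passing the test. It stood at 18.8, 29.0 and 11.8 CPM in mice 2, 3 and 4 of the knockout group, against 35.6, 28.9, 66.6 and 39.0 CPM in control mice 5, 6, 7 and 8. The groups met at 1 point only, where knockout mouse 3 lay just above wild-type mouse 6. The knockout mean was 19.9 ± 8.64 CPM (SD, n = 3), or 46.7% of the wild-type mean of 42.5 ± 16.6 CPM (SD, n = 4). The log2 fold change was -1.10 (SE 0.56; 95% interval -2.31 to 0.11; unadjusted p = 0.0723, edgeR adjusted p = 0.9997). Erbb3 is also a receptor of Schwann cells and melanocytes, whose marker levels were therefore read beside it. The 4 Schwann cell markers summed to 319 to 716 CPM in the knockout group and 280.5 to 430.3 CPM in controls, and the 5 melanocyte markers to 45.3 to 71.3 CPM and 1.35 to 36.3 CPM. Counts were at 0 in some library for 4 of the 5 melanocyte markers and for 0 of the Schwann cell markers, and none of either list was at 0 throughout; their part in the level of Erbb3 was not tested.

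Areg, which encodes amphiregulin, had the largest fitted difference between the groups. It had 0 counts in all 3 knockout libraries, while wild-type mice 5, 6, 7 and 8 gave 298, 69, 320 and 0 counts, or 32.1, 7.77, 39.3 and 0 CPM. Areg was thus detected in 3 of 4 wild-type and 0 of 3 knockout mice, with the groups overlapping at 0 through wild-type mouse 8. Taking 3 counts per library as the limit, averaged over the knockout libraries as 0.373 CPM, the knockout level was at least 53.0-fold lower than the wild-type mean of 19.8 ± 18.9 CPM (SD, n = 4), if counting error were the only error. Among all genes tested, 0.807% had 0 counts in the 3 knockout libraries. The unadjusted p was 0.00368 and the edgeR adjusted p = 0.729, so Areg was not called. Areg entered the test only through wild-type mice 5, 6 and 7, the libraries where it is high, so a difference was fixed by its entry and its p-values support nothing on their own. It was called by DESeq2 (adjusted p = 0.000331, with 0.954% of all genes called) and by edgeR with no filter on low counts (adjusted p = 0.00874, with 0.397% called), within 0.000331 to 1.00 over its alternatives. Without wild-type mouse 5, 6 or 7 it did not pass the filter on low counts, so it was not tested. Without wild-type mouse 8 its edgeR adjusted p was 0.425.

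**Figure D2:**
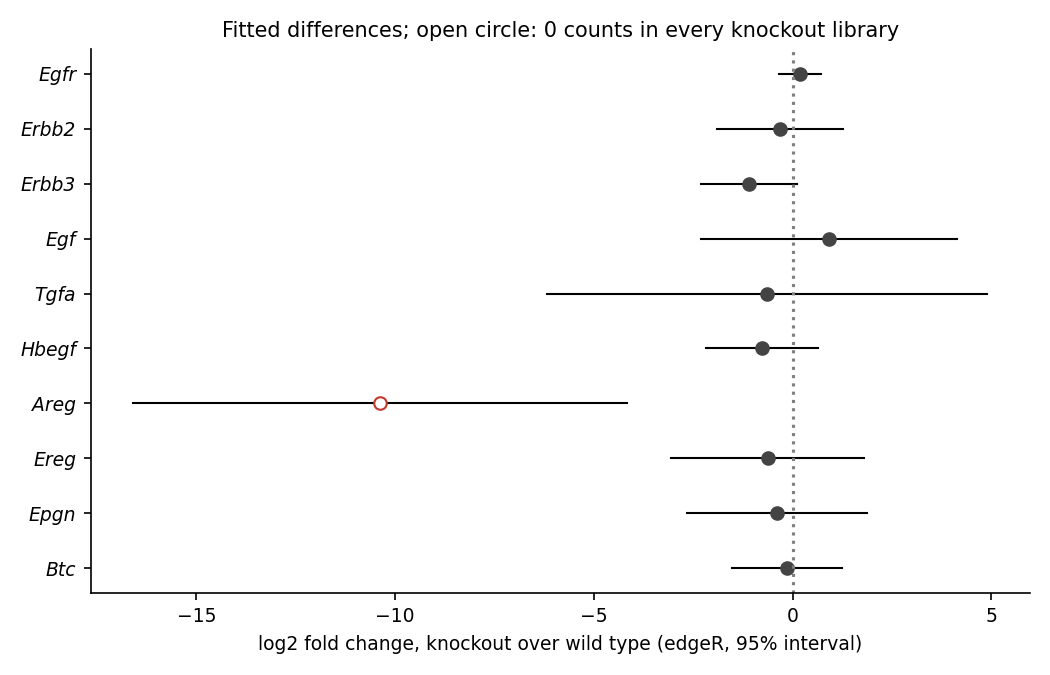
Fitted log2 fold change of each member, knockout over wild type (x axis), with its 95% interval from edgeR. Intervals of 9 members hold 0. That of Areg (open circle) does not, but Areg entered the test only through wild-type libraries where it is high. Its fitted value of -10.37 rests on 0 counts in knockout skin and depends on the prior count, so its size is no estimate.

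The libraries without Areg were also those with the lowest level of immediate early genes, which switch on quickly after growth factors, stress or handling of tissue. The summed level of the 21 listed immediate early and other response genes was 1666, 1517 and 1844 CPM in knockout mice 2, 3 and 4 and 1860 CPM in wild-type mouse 8. In wild-type mice 5, 6 and 7, which had Areg, it was 5620, 3125 and 4841 CPM. Of 19 tested members of that list 16 had a log2 fold change below 0 (50.5% of all genes), with a median of -0.82. By edgeR 0 of these 19 were called (0.0233% of all genes) and 9 had an unadjusted p under 0.05 (4.31%). DESeq2 called 3 (0.954% of all genes), limma-voom 1 (0.171%) and edgeR with no filter 7 (0.397%). The list was chosen with earlier results of these data known, and the libraries were set apart here by their Areg counts. The shares are thus no independent support. The part of these genes in the difference of Areg was not tested.

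Hbegf, which encodes the heparin-binding ligand HB-EGF, stood at 41.3, 9.97 and 11.7 CPM in mice 2, 3 and 4 of the knockout group. In control mice 5, 6, 7 and 8 it was at 50.6, 26.3, 32.5 and 33.2 CPM. Knockout mice 3 and 4 lay below all wild-type mice, and knockout mouse 2 lay above 3 of the 4. For Hbegf the log2 fold change was -0.76 (SE 0.65; 95% interval -2.18 to 0.65; edgeR adjusted p = 0.9997), -1.72 without knockout mouse 2 (edgeR adjusted p = 0.764), -0.43 without knockout mouse 3 and -0.48 without knockout mouse 4. Hbegf lies at chromosome 18, 36637980 to 36648858 (mm39).

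Tgfa, which encodes TGF-alpha, was among the least abundant members. Knockout mice 2, 3 and 4 gave 72, 27 and 0 counts, and the controls 5, 6, 7 and 8 gave 0, 80, 136 and 0, or at most 9.32 and 16.7 CPM. Zeros fell in both groups, in 1 of 3 knockout and 2 of 4 wild-type libraries. The log2 fold change of -0.64 had an SE of 2.56 and a 95% interval of -6.18 to 4.89 (edgeR adjusted p = 0.9997), so these libraries cannot size a difference in Tgfa.

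Egf, the ligand that names the family, was at 1.81, 36.3 and 6.84 CPM in mice 2, 3 and 4 of the knockout group, against 0.215, 19.5, 5.40 and 6.68 CPM in control mice 5, 6, 7 and 8. Knockout mouse 3 and wild-type mouse 6 were high, and the others were at 6.84 CPM or below. For Egf the log2 fold change was 0.91 (SE 1.49; edgeR adjusted p = 0.9997), and -0.88 without knockout mouse 3.

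Epgn, Ereg, Areg and Btc lie side by side, in this order, within 375.5 kb of chromosome 5 (91175323 to 91550853, mm39). The gaps between them are 39.4 kb from Epgn to Ereg, 46.0 kb from Ereg to Areg and 208.8 kb from Areg to Btc, and the 3 other annotated genes in the stretch had 0 counts. Epgn and Btc were each lowest, within their group, in knockout mouse 4 and wild-type mouse 8, whereas Areg and Ereg differed in where they were at 0. Ereg, the gene next to Areg, had counts in knockout mice 2 and 3 and was at 48.0 CPM in wild-type mouse 8, its highest wild-type value, all libraries without Areg.

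**Figure D3:**
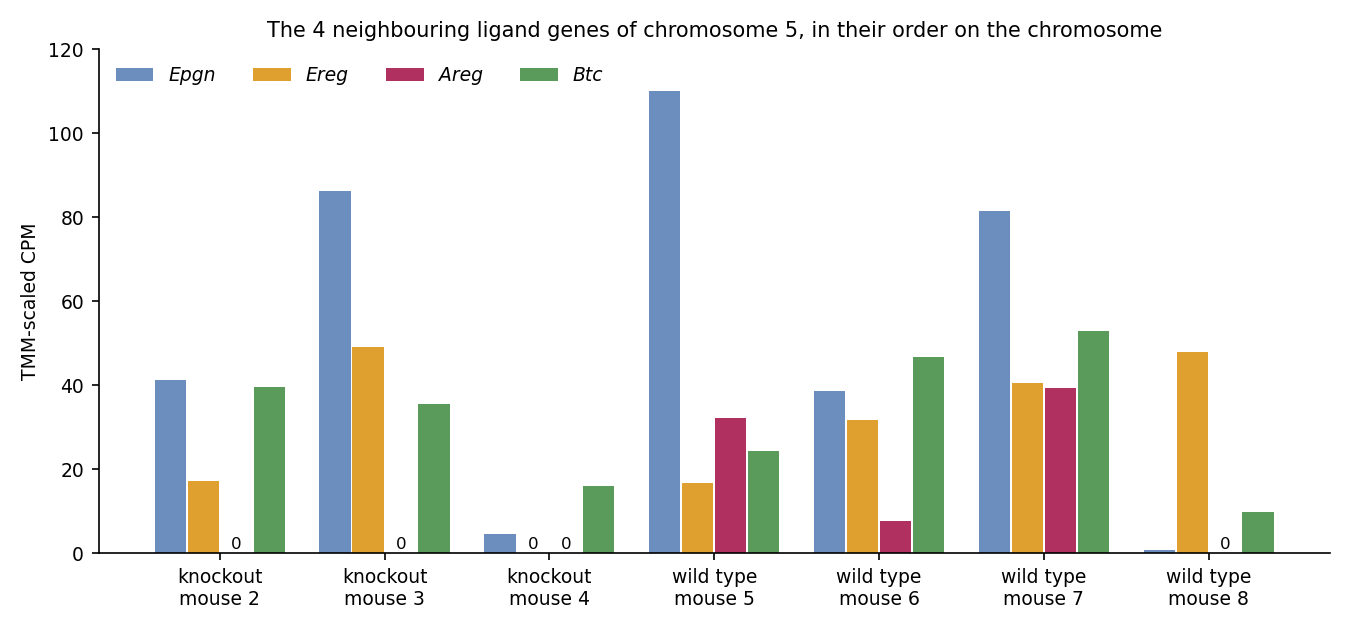
TMM-scaled CPM (y axis, from 0) of the 4 neighbouring ligand genes in each of the 7 libraries, drawn in their order on chromosome 5; a 0 marks a gene without counts. Wild-type mouse 8 has Ereg at 48.0 CPM beside 0.743 CPM of Epgn and no Areg, and knockout mouse 4 has neither Ereg nor Areg.

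Epgn, which encodes epigen, had the highest mean among the ligands in both groups. It stood at 41.2, 86.1 and 4.60 CPM in mice 2, 3 and 4 of the knockout group, against 110.04, 38.7, 81.5 and 0.743 CPM in control mice 5, 6, 7 and 8. Each group held 1 library far below its others, knockout mouse 4 and wild-type mouse 8. In wild-type mouse 5 Epgn exceeded Egfr. For Epgn the log2 fold change was -0.39 (SE 1.04; 95% interval -2.65 to 1.86; edgeR adjusted p = 0.9997).

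Ereg, which encodes epiregulin, stood at 17.2, 49.2 and 0 CPM in mice 2, 3 and 4 of the knockout group, against 16.7, 31.6, 40.6 and 48.0 CPM in control mice 5, 6, 7 and 8. Knockout mouse 3 was above all wild-type mice and knockout mouse 4 below all. For Ereg the log2 fold change was -0.63 (SE 1.13; edgeR adjusted p = 0.9997), -0.05 without knockout mouse 4, -1.99 without knockout mouse 3 and -2.88 with limma-voom.

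Btc, which encodes betacellulin, stood at 39.6, 35.5 and 16.05 CPM in mice 2, 3 and 4 of the knockout group, against 24.2, 46.8, 52.9 and 9.90 CPM in control mice 5, 6, 7 and 8. The knockout values lay within the wild-type range. For Btc the log2 fold change was -0.14 (SE 0.64; 95% interval -1.53 to 1.25; edgeR adjusted p = 0.9997).

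By mean level, the order in wild-type skin was Egfr, Epgn, Erbb3, Erbb2, Hbegf, Ereg, Btc, Areg, Egf and Tgfa, and in knockout skin Egfr, Epgn, Erbb2, Btc, Ereg, Hbegf, Erbb3, Egf, Tgfa and Areg. Neighbours in this order differed by less than the larger of their SDs, except Egfr and Epgn in knockout skin, where the difference of 74.3 CPM exceeded the SD of 40.8 CPM. In wild-type skin Egfr exceeded Epgn by 46.1 CPM, within the SD of 48.0 CPM, and in 3 of 4 libraries. The leading ligand changed from mouse to mouse. It was Hbegf in knockout mouse 2, Epgn in knockout mouse 3 and Btc in knockout mouse 4, and Epgn, Btc, Epgn and Ereg in wild-type mice 5, 6, 7 and 8. The 7 ligands summed to 150.4, 220.1 and 39.2 CPM in mice 2, 3 and 4 of the knockout group, against 234, 179.8, 269 and 98.5 CPM in control mice 5, 6, 7 and 8. Knockout mouse 4 and wild-type mouse 8 were the lowest of their groups, with 5 and 6 of the 10 members under 10 CPM against 1 to 3 in the other libraries. The 3 receptors together varied less, from 145 to 214 CPM.

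Genes around the receptors were read from 6 lists of 95 genes, of which 85 were tested. The lists were chosen with earlier results of these data known, so their shares are descriptive only. By edgeR 0 of the 85 were called in either direction, and 11 had an unadjusted p under 0.05 (4.31% of all genes). DESeq2 called 3 (0.954% of all genes) and limma-voom 1 (0.171%). Of the 11, 9 were immediate early and other response genes, as were all DESeq2 and limma-voom calls. Ligand processing and the PI3K, AKT, PLC and STAT arms held 1 of the 11 each, and the other lists 0. Without overlap between the groups, 10 were lower in knockout skin (3.45% of all genes) and 0 higher (3.44%). Of the 10, 4 were immediate early genes and 4 belonged to the PI3K, AKT, PLC and STAT arms.

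**Figure D4:**
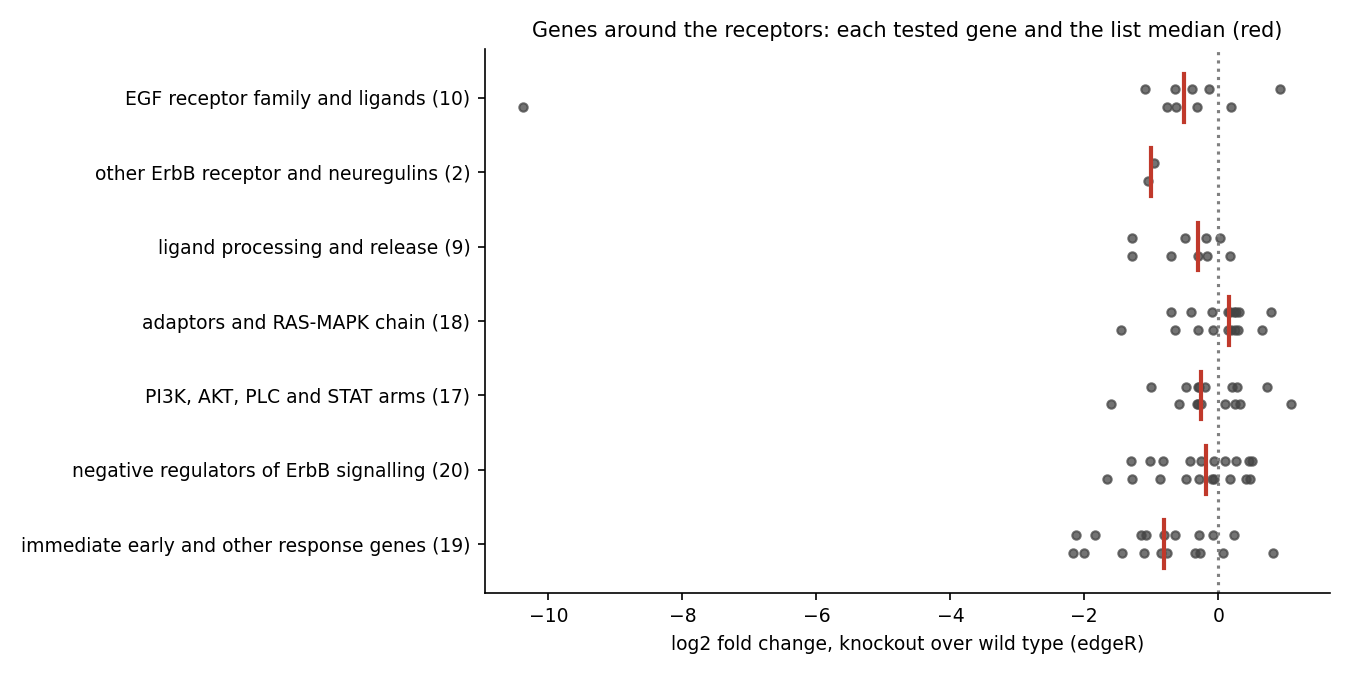
Log2 fold change, knockout over wild type (x axis, edgeR), of each tested gene in the 10 members and the 6 lists around them, with the number tested in brackets and the list median as a red line. Medians run from -1.003 for 2 neuregulins to 0.16 for the RAS-MAPK chain; the point at -10.37 is Areg, a fitted value on 0 counts.

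Among the remaining receptor and the neuregulins, the ligands of ERBB3 and ERBB4, Erbb4 and Nrg3 had 0 counts in all 7 libraries, and Nrg1 had 76 counts in all. Nrg4 was at 4.40 ± 5.17 CPM in knockout skin and 8.55 ± 13.7 CPM in controls, and Nrg2 at 2.76 ± 2.92 and 5.73 ± 5.39 CPM (SD, n = 3 and n = 4, here and below).

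Of the genes for ligand processing and release, 9 of 12 were tested, and 7 lay below 0 (median log2 fold change -0.30). Adam17, which encodes the main protease that frees these ligands, was at 67.9 ± 38.9 CPM in knockout skin and 96.1 ± 28.2 CPM in controls. Adam15 was at 111 ± 52.3 and 125 ± 30.05 CPM, and Cnih1, which encodes a cornichon protein of vesicle transport, at 84.1 ± 18.3 and 104 ± 19.8 CPM. Adam10 (named after its values were seen) was the 1 of 9 in this list without overlap (lower in 3.45% of all genes), at 17.2 ± 8.30 CPM in knockout skin and 42.3 ± 13.7 CPM in controls (log2 fold change -1.29, SE 0.58, edgeR adjusted p = 0.9997).

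In the RAS-MAPK chain 11 of 18 tested genes lay above 0, with a median of 0.16. Mapk3, which encodes the kinase ERK1, was at 246 ± 120.4 CPM in knockout skin and 205 ± 67.1 CPM in controls, Nras at 137 ± 9.66 and 146 ± 7.20 CPM, and the adaptor Grb2 at 126 ± 21.9 and 107 ± 22.9 CPM. In the PI3K, AKT, PLC and STAT arms 10 of 17 lay below 0, with a median of -0.26. The kinase gene Jak1 was at 268 ± 29.5 CPM in knockout skin and 375 ± 79.1 CPM in controls, without overlap (log2 fold change -0.48, SE 0.22, edgeR adjusted p = 0.9997). It was 1 of 4 genes among the 17 that were lower without overlap (3.45% of all genes). The others, named after their values were seen, were Pik3cb, Mtor and Stat5a, and edgeR called none of them. Stat3 was at 284 ± 136 and 341 ± 86.4 CPM, and Gsk3b at 188 ± 12.5 and 164 ± 23.8 CPM.

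Negative regulators had 13 of 20 tested genes below 0 and a median of -0.18. Dusp6, a phosphatase gene that ERK signalling induces, was at 105 ± 14.2 CPM in knockout skin and 125 ± 32.8 CPM in controls, Ptpn1 at 94.8 ± 45.0 and 101 ± 36.1 CPM, and Spry2 at 97.4 ± 16.3 and 80.8 ± 15.0 CPM. Errfi1, which encodes a direct inhibitor of EGFR (named after its values were seen), was the 1 of 20 regulators without overlap, a share near that of all genes (lower in 3.45%). It was at 35.1 ± 26.2 CPM in knockout skin and 71.4 ± 10.5 CPM in controls (edgeR adjusted p = 0.9997). Among response genes, Egr1 was at 308 ± 7.66 CPM in knockout skin and 685 ± 247 CPM in controls (edgeR adjusted p = 0.489), Junb at 269.7 ± 95.4 and 583 ± 290.3 CPM and Fosb at 142 ± 118 and 508 ± 421 CPM.

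Summed levels did not overlap between the groups for fat cell markers and for wound and stress keratin markers. The sums of epidermal keratinocyte and melanocyte markers given above did not overlap either, but their mean log2 CPM did. For keratinocyte markers it was 10.06 to 10.15 in the knockout group and 10.09 to 10.37 in controls. For the 4 tested melanocyte markers it was 1.55 to 3.46 and -1.38 to 2.09. Of the 10 keratinocyte markers, 6 had a log2 fold change below 0 and 4 above. The 6 fat cell markers summed to 2153 to 3468 CPM in the knockout group and 5942 to 10333 CPM in controls, without overlap, with 6 of 6 log2 fold changes below 0, no marker at 0 in any library, and 0 called by edgeR. Of these 6, 6 had an unadjusted p under 0.05 (4.31% of all genes), DESeq2 called 6 (0.954%) and limma-voom 5 (0.171%). The 7 wound and stress keratin markers summed to 1055 to 1792 CPM in the knockout group and 607 to 852 CPM in controls; 5 were tested, 4 lay above 0, 1 (Krt6a, higher) was called by edgeR (0.0233% of all genes), and 4 of the 7 were at 0 in some library. The 9 hair follicle and sebaceous markers summed to 2648 to 4403 CPM in the knockout group and 2307 to 3106 CPM in controls, with overlap. Their mean log2 CPM did not overlap, at 7.49 to 7.92 and 6.56 to 7.23. Of the 9, 4 were higher without overlap (3.44% of all genes) and 4 had an unadjusted p under 0.05 (4.31%). By edgeR 0 were called, by DESeq2 3 (0.954%) and by limma-voom 2 (0.171%). The 8 macrophage and mast cell markers overlapped in their sums. Their mean log2 CPM did not, at 5.30 to 6.14 in the knockout group and 4.49 to 5.08 in controls. All 8 lay above 0, and edgeR, DESeq2 and limma-voom each called 0. The marker lists too were chosen with earlier results of these data known, so their shares are descriptive only. The part of these lists in the levels of the members was not tested.

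The genes whose profile over the 7 libraries was most like that of a receptor were found among 6719 genes with a mean of at least 20 CPM. Likeness was the mean absolute difference between log2 CPM profiles, each centred on its own mean. For Egfr these were Ppp2r5c (0.075), Rps20 (0.084) and Rpl12 (0.085), a phosphatase subunit and 2 ribosomal protein genes, beside a mean deviation of 0.101 for Egfr itself. For Erbb3, whose own mean deviation was 0.545, they were Cldn23 (0.177), Ifrd1 (0.191) and Alox12b (0.232). For Erbb2, whose own mean deviation was 0.918, they were 8030462N17Rik (0.370), Sertad1 (0.392) and Mill2 (0.409).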

How the data were processed

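RNA of mouse skin was isolated with TRIzol and made into QuantSeq 3' libraries, per the labels' protocols, 1 library per mouse (3 KO, 4 WT). Per gene, the authors deposited raw counts (whole numbers, not normalized). Per the submitters' processing notes, build mm39 was used with edgeR 3.36.0, featureCounts, Subread 2.0.3, STAR and GATK 4.2.4.0, in no stated order or role; strand use and duplicate removal are not given in the sources used here. The other deposited table gives log2 values for a filtered gene set, normalized by the authors; all 90678 equalled TMM-scaled log2 CPM computed here (prior count 2, tolerance 1e-09). It defined 1 alternative gene set.

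Counts of 7 libraries were analysed in edgeR 4.0.16 (R 4.3.3): expression filter at a minimum of 10 counts, TMM, quasi-likelihood F test, Benjamini-Hochberg over 12888 genes, threshold 0.05. SEs follow from F. Alternatives used DESeq2 1.42.0, limma-voom 3.58.1, other scalings and filters, and each mouse left out. P-values set the difference of group means against the spread within groups, which edgeR moderates over genes. With 1 library per mouse, spread between mice and between library preparations cannot be told apart. The members and lists were chosen with earlier results of these data known. Named were all members, Tuft1, and the 3 most abundant tested genes of each list, plus likeness neighbours of the receptors; values of marker lists are sums. The edgeR procedure was tested on simulated data with known fold changes. The first simulated pattern tied direction to fold size and did not meet its pass rule, so both the pattern and the rule were revised after that output was seen; the rule now asks only that the sign of the most strongly changed genes be recovered. The test therefore says little about power, and many of the changed genes in it were not called. Of 50 genes changed at each size, 1 was called at 2-fold, 14 at 4-fold, 19 at 8-fold and 21 at 16-fold. At 16-fold, 44 of the 50 had the right sign.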

Additional observations from a re-analysis of the deposited data

Results flagged for a closer look

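Of the wild-type values of Tuft1 and the 10 members, 1 mouse lay far from the other 3 of its group. Wild-type mouse 7 had Tuft1 at 5.80 on the log2 CPM scale and the others at 6.70 to 6.84; chance gives about 1 such flag in 20 groups, and 11 were looked at. None of the 10 members was flagged in this way; groups of 3 were not tested.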

How the results depend on the processing

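No paired analysis was possible because the groups share no mouse numbers. The count of genes called, 3 by edgeR, was 123 with the DESeq2 Wald test, 22 with limma-voom, 76 with no filter on low counts and 24 at a mean of at least 50 CPM, and ran from 0 to 1 with each mouse left out. The count of members called, 0, was 1 (Areg) with DESeq2 and with no filter, and 0 with each mouse left out. Egfr, Erbb3, Areg, Ereg and Hbegf kept their direction under every alternative that gave a value. With limma-voom the log2 fold change turned to 0.15 for Erbb2, 0.58 for Tgfa, 0.033 for Btc and 0.14 for Epgn; the cause was not tested. With each mouse left out it ran from -0.69 to 0.072 for Erbb2, -2.08 to 0.45 for Tgfa, -0.44 to 0.17 for Btc, -1.33 to 0.14 for Epgn and -0.88 to 1.86 for Egf, so the direction of these 5 rests on single mice. At a mean of at least 50 CPM 2 members, Egfr and Epgn, could be tested. With each mouse left out the log2 fold change ran from -1.72 to -0.43 for Hbegf and from -1.99 to -0.05 for Ereg, which was -2.88 with limma-voom. Tuft1 was called with DESeq2, with no filter and among genes averaging 50 CPM or more. A count of 0 allows 0.323 to 0.395 CPM at these depths; whether depth sets the zeros was not tested.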
